A study of Homo sapiens with 9 samples.

Results

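The genes described here are 10 members of the regulated secretory pathway of neuroendocrine cells and neurons: the granins SCG2, CHGA, CHGB, SCG3 and SCG5, the granin-related peptide precursor VGF, the neuropeptides NPY and GAL, and the neuronal pentraxins NPTX1 and NPTX2. They were chosen from the genes on the array with earlier results of these same data known, and measured values also chose the probe set of each gene, which was the one highest on average across the 9 arrays. The 10 genes had 11 probe sets carrying a single symbol, and GAL was the only one with 2. Of the 10 genes, 5 were among the 14181 genes tested, which needed a level of at least 5 on the log2 scale on at least 2 arrays, and the other 5 stayed under that floor on every array.

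Total RNA was hybridised to HG-U133 Plus 2 arrays (Affymetrix) from TC-71, a human Ewing sarcoma cell line, and from 3 lines drawn from it by growth in rising concentrations of an agent against the IGF-1 receptor over 6 months. TC/AEW was drawn with concentrations up to 5 µM of NVP-AEW541, an inhibitor of the receptor's kinase. TC/AVE was drawn with up to 10 µg/ml of the antibody AVE1642. TC/CP was drawn with the antibody figitumumab, and the sources used here do not give its highest concentration. The parental TC-71, labelled as not resistant to such drugs, gave 3 samples with 1 array each. Each resistant line is 1 line with 2 technical replicate arrays and no biological replicate, so its arrays were averaged and the line counted as 1 sample. No label gives a TC-71 culture kept alongside for the same time without drug, nor says whether drug was present at harvest. The design text sets the resistant lines, singly and in common, against the parental line.

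Granins are acidic proteins that are stored with peptide hormones and amines in dense-core granules, where they take part in granule formation, and several are cut into active peptides. Cells with this pathway release granule contents when stimulated, and levels of chromogranins and neuropeptides are used to recognise neuroendocrine tumours. Ewing sarcoma cells carry a fusion of EWSR1 with an ETS factor gene and show part of a neural expression programme, and NPY and its receptors have been studied in this tumour.

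The labelled cell type was checked against its markers. All 11 Ewing sarcoma markers on the array were at 5 or more in all 6 samples, among them the surface protein CD99, at 12.95 in TC/AEW, 13.00 in TC/AVE and 12.93 in TC/CP and at 12.83 ± 0.01 in TC-71 (SD, n = 3). These markers did not all keep their TC-71 level. LIPI averaged 5.82 in TC/AEW, 5.23 in TC/AVE and 5.33 in TC/CP, against 7.01 ± 0.49 in TC-71. FCGRT averaged 10.50, 10.06 and 9.60 in the same order, against 11.31 ± 0.40. JAK1 lay higher, at 12.73, 12.79 and 12.95 against 12.64 ± 0.03. Of 9 sympathoadrenal markers 7 were at 5 or more in all samples, while TH and DDC, enzymes of catecholamine synthesis, were under 5 in all. The summed linear signal of these 9 was 704 in TC/AEW, 654 in TC/AVE and 598 in TC/CP, against 560 to 611 in the TC-71 samples. Of 7 blood markers 5 were under 5 in all samples. In all samples 4 of 5 glia and melanocyte, 3 of 7 epithelial and 2 of 4 skeletal muscle markers also reached 5. This level lay under the array medians of 5.39 to 5.45, so reaching it does not set the sympathoadrenal list apart. The summed signal of 7 fibroblast markers was 1238 in TC/AEW, 691 in TC/AVE and 986 in TC/CP, against 544 to 767 in TC-71, and its part in the values of the secretory genes was not tested. The 2 arrays of a line correlated at 0.996 to 0.998 across genes, which are not independent replicates, and pairs of TC-71 samples at 0.962 to 0.983. The array file names carry a year, which placed TC-71 sample 1 alone in a set, TC/AEW and TC/AVE beside TC-71 sample 2, and TC/CP beside TC-71 sample 3. In RNA from a whole culture, fewer cells expressing a gene and less RNA per cell cannot be told apart.

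Among the 10 genes, SCG2 was higher in all 3 resistant lines, NPTX2 was lower in all 3, and GAL was higher in TC/AEW and lower in TC/AVE. The other 7 lay close to TC-71 or near background. None of the 5 tested members passed the threshold of 0.05 on the adjusted p of limma in any of 6 comparisons. Over all 14181 genes the lines in common had 3 such genes (0.0212%), none of them a member. The resistant lines taken singly, TC/AEW against the antibody-drawn lines, and TC/AVE against TC/CP had 0 genes in each of these 5 comparisons (0%). At an unadjusted p under 0.05 in limma the lines in common had 1187 genes (8.37% of all tested genes). TC/AEW had 501 (3.53%), TC/AVE 1018 (7.18%) and TC/CP 705 (4.97%). TC/AEW against the antibody-drawn lines had 263 (1.85%) and TC/AVE against TC/CP 816 (5.75%). In TC/AEW 2 of the 5 tested members were at least 2-fold higher than in TC-71 (SCG2 and GAL) and 1 as much lower (NPTX2). Of all tested genes 1.75% were as much higher and 0.487% as much lower. In TC/AVE 1 tested member was at least 2-fold higher (SCG2) and 1 lower (NPTX2), where 1.98% and 1.73% of all tested genes were. In TC/CP the same 2 genes were at least 2-fold higher and lower, where 2.43% and 0.79% of all tested genes were. The comparisons with TC-71 share its 3 samples. Since the members were proposed with such values known, nothing is read from their share.

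**Figure D1:**
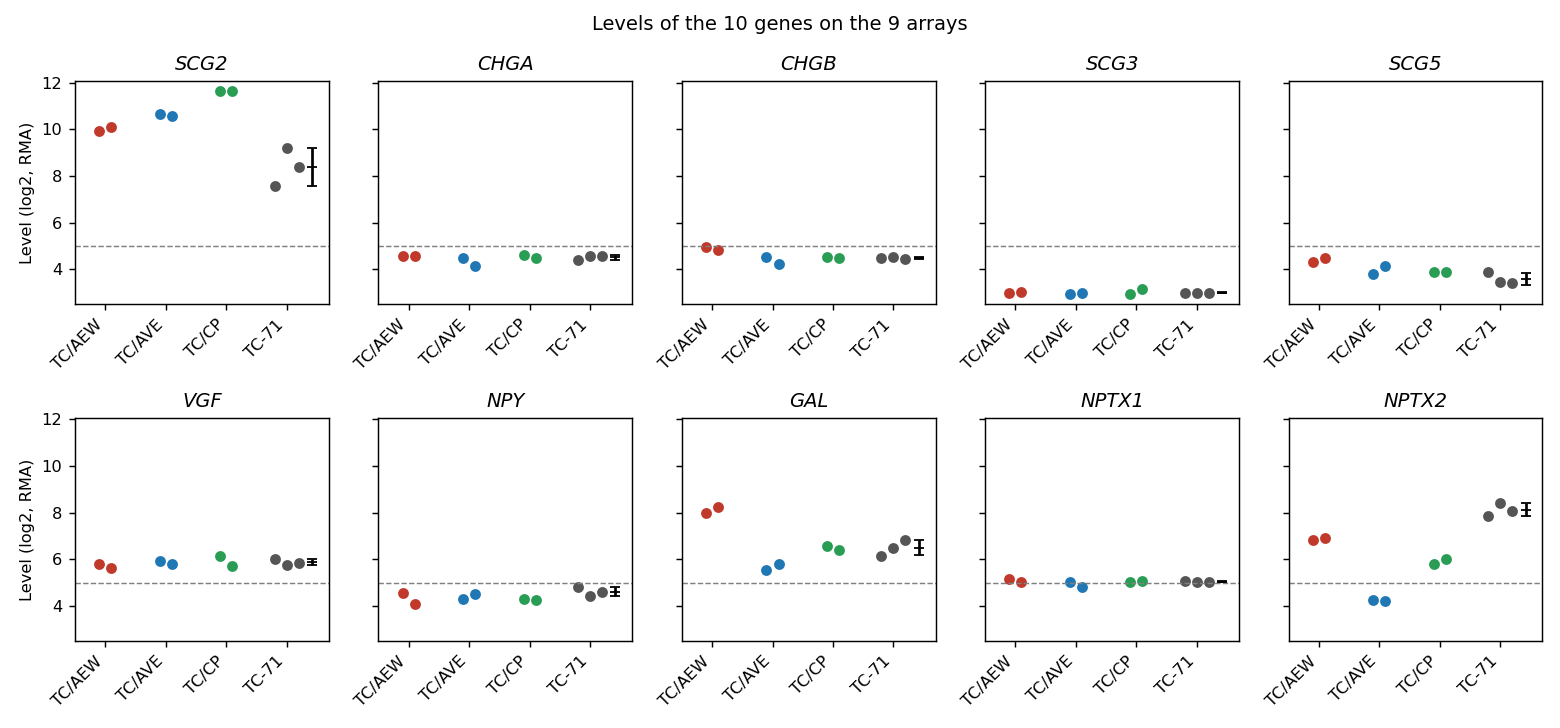
Log2 level of each of the 10 genes (y axis) on every array of the 3 resistant lines and of TC-71 (x axis); each point is an array, the bar beside TC-71 is the mean ± SD of its 3 samples, and the dashed line is the floor of 5. SCG2 lies higher and NPTX2 lower on all 6 arrays of the resistant lines than on the 3 TC-71 arrays, GAL stands out in TC/AEW, and CHGA, CHGB, SCG3, SCG5 and NPY stay under the floor.

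SCG2 encodes secretogranin II, a granin from which the peptide secretoneurin is cut. Its gene lies on chromosome 2 at 223596940 to 223602361 of GRCh38.p14 and was read by probe set 204035_at. SCG2 stood at 9.91 and 10.10 in TC/AEW, at 10.64 and 10.57 in TC/AVE, at 11.62 and 11.64 in TC/CP, and at 7.57, 9.22 and 8.38 in TC-71 samples 1, 2 and 3. Every array of the resistant lines lay above every TC-71 array, TC/CP was the highest and TC/AEW the lowest of the lines, and the TC-71 samples themselves spread by 1.64. Such a gap from TC-71 on every array was found for 5.11% of tested genes in the upward and 4.27% in the downward direction, and for 1 member each way, SCG2 and NPTX2.

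SCG2 differed from the TC-71 mean of 8.39 ± 0.82 (SD, n = 3) by 1.61 in TC/AEW, 2.22 in TC/AVE and 3.24 in TC/CP on the log2 scale, each ± 0.63 (SE). These are 3.06-fold, 4.65-fold and 9.44-fold higher levels. In limma the adjusted p was 1.00 for TC/AEW, 0.580 for TC/AVE and 0.514 for TC/CP. The size of the TC/CP difference ranked 4 among the 7050 genes that were higher in that line. For the lines in common the SCG2 difference was 2.36 ± 0.52 (SE), 5.12-fold, with an adjusted p of 0.298 and rank 3 by size among 6956 higher genes. SCG2 thus had one of the largest differences of the array and did not pass the threshold. Against the TC-71 sample of the same array set, the SCG2 difference was 0.79 in TC/AEW (1.73-fold), 1.39 in TC/AVE (2.63-fold) and 3.25 in TC/CP (9.49-fold). With the array set as a block the common difference was 2.01, with an adjusted p of 0.387 in limma.

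Differences in SCG2 between the lines did not pass the test. TC/AEW minus the mean of TC/AVE and TC/CP was -1.12 ± 0.67 (SE), adjusted p 1.00 in limma, and TC/AVE minus TC/CP was -1.02 ± 0.77 (SE), adjusted p 1. The order TC/CP, TC/AVE, TC/AEW, TC-71 is therefore a description of single cultures.

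The other 4 granins were near background in every group, and differences between such levels are given as readings with no size or direction of expression read from them. CHGA, chromogranin A, the granin most used as a serum marker of neuroendocrine tumours, stood at 4.58 and 4.55 in TC/AEW, 4.50 and 4.15 in TC/AVE, 4.59 and 4.50 in TC/CP, and 4.39, 4.57 and 4.58 in TC-71. CHGB, chromogranin B, stood at 4.94 and 4.80 in TC/AEW, 4.52 and 4.23 in TC/AVE, 4.52 and 4.50 in TC/CP, and 4.50, 4.52 and 4.44 in TC-71. CHGA overlapped between all groups, whereas both TC/AEW arrays of CHGB lay above the TC-71 arrays, by 0.39 between means. SCG5, also known as 7B2, the chaperone of the prohormone convertase PC2, stood at 4.30 and 4.46 in TC/AEW, 3.79 and 4.15 in TC/AVE, 3.87 and 3.88 in TC/CP, and 3.88, 3.47 and 3.43 in TC-71. Both TC/AEW arrays of SCG5 read above the TC-71 arrays, by 0.79 between means, with all arrays under the floor. How common such a gap is in a single line was not counted, so nothing is read from these gaps. SCG3, secretogranin III, which binds CHGA in granules, read between 2.93 and 3.16 on all 9 arrays. SCG2 was thus the one granin of the 5 with a level above the floor.

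VGF encodes a precursor related to granins, induced by nerve growth factor, that is cut into several peptides. It was read only by probe set 205586_x_at, of a type prone to cross-hybridisation, and its gene lies on chromosome 7 at 101162509 to 101169952. VGF stood at 5.78 and 5.63 in TC/AEW, 5.93 and 5.78 in TC/AVE, 6.14 and 5.70 in TC/CP, and 6.01, 5.77 and 5.84 in TC-71. All groups overlapped, and the gap of 0.445 between the TC/CP arrays was the largest between the arrays of any line among the 5 tested members. The VGF differences were -0.17 in TC/AEW, -0.02 in TC/AVE and 0.05 in TC/CP, and -0.05 for the lines in common with an adjusted p of 0.936 in limma.

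NPY encodes neuropeptide Y, a sympathetic transmitter. NPY stood at 4.55 and 4.09 in TC/AEW, 4.30 and 4.52 in TC/AVE, 4.30 and 4.25 in TC/CP, and 4.81, 4.40 and 4.61 in TC-71. All these levels were near background, with both TC/CP arrays under the TC-71 arrays, by 0.34 between means, and the other lines overlapping TC-71. Nothing is read from that gap, since its share over all genes was not counted.

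GAL encodes galanin, a neuropeptide that acts through 3 receptors, and lies on chromosome 11 at 68684544 to 68691175. Its main probe set, 214240_at, stood at 7.98 and 8.26 in TC/AEW, 5.54 and 5.81 in TC/AVE, 6.56 and 6.40 in TC/CP, and 6.16, 6.50 and 6.82 in TC-71. Both TC/AEW arrays lay above all TC-71 arrays, both TC/AVE arrays lay below them, and TC/CP lay within their range. The share of all tested genes with such a gap in a single line was not counted, so nothing is read from it. GAL differed from the TC-71 mean of 6.49 ± 0.33 (SD, n = 3) by 1.62 in TC/AEW, which is 3.08-fold, by -0.82 in TC/AVE and by -0.01 in TC/CP, each ± 0.31 (SE). In limma the adjusted p was 0.908 in TC/AEW, 0.688 in TC/AVE and 0.998 in TC/CP. The difference held its direction within array sets in TC/AEW and TC/AVE, at 1.61 and -0.83, and was -0.34 in TC/CP. For the lines in common the GAL difference was 0.26 ± 0.57 (SE), adjusted p 0.917 in limma, and without TC/AEW it was -0.42, so that 1 line set its sign.

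Between lines, GAL in TC/AEW exceeded the mean of TC/AVE and TC/CP by 2.04 ± 0.33 (SE), 4.11-fold, the rank 19 difference by size among 7115 genes higher in TC/AEW. Its unadjusted p was 0.00170 and its adjusted p 1.00 in limma. TC/AVE minus TC/CP was -0.81 ± 0.39 (SE), adjusted p 0.947. The second GAL probe set, 207466_at, read between 3.73 and 4.37 on all arrays and gave differences of 0.08 in TC/AEW, -0.24 in TC/AVE and -0.22 in TC/CP. The higher GAL level in TC/AEW was therefore seen with 1 of 2 probe sets, the other being near background throughout.

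**Figure D2:**
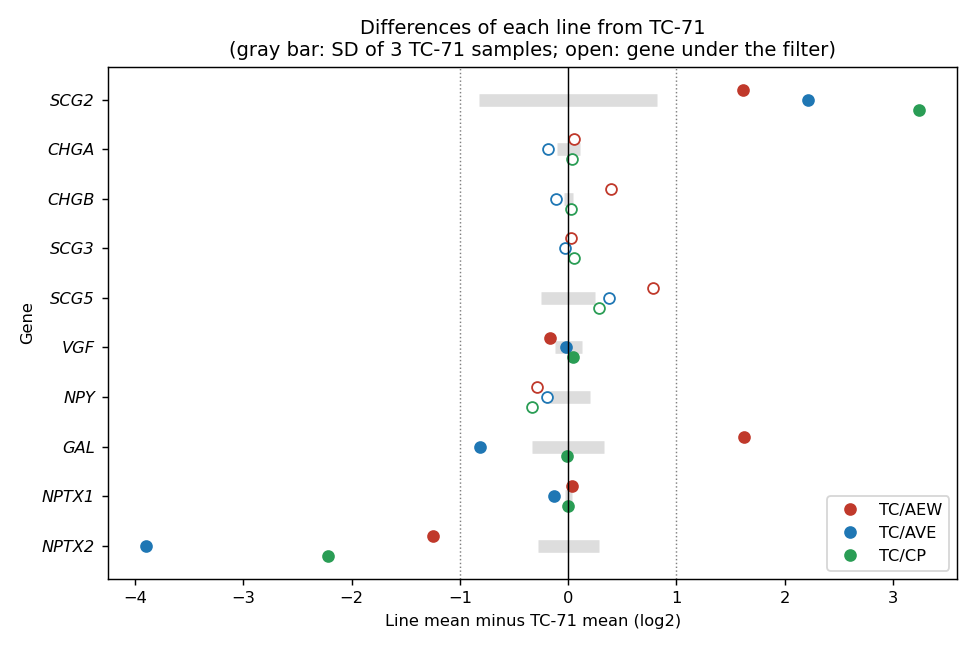
Difference of each line mean from the TC-71 mean (x axis, log2) for the 10 genes (y axis); gray bars are the SD of the 3 TC-71 samples around 0, open points are genes under the floor of 5, and dotted lines mark a 2-fold difference. SCG2 lies right of the TC-71 spread in all 3 lines, up to 3.24 in TC/CP, NPTX2 lies left of it, down to -3.90 in TC/AVE, and GAL splits between TC/AEW at 1.62 and TC/AVE at -0.82.

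The neuronal pentraxins are secreted proteins that gather AMPA receptors at synapses. NPTX1, on chromosome 17 at 80466834 to 80476607, was just above the floor on 8 of 9 arrays of probe set 204684_at. NPTX1 stood at 5.13 and 5.02 in TC/AEW, 5.02 and 4.80 in TC/AVE, 5.01 and 5.07 in TC/CP, and 5.08, 5.02 and 5.02 in TC-71. All groups overlapped, and the NPTX1 difference farthest from 0 was -0.13, in TC/AVE. NPTX1 was the member just inside the floor and CHGB, with a highest array of 4.94, the one just outside it.

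NPTX2 encodes the activity-regulated pentraxin known as Narp, and lies on chromosome 7 at 98617285 to 98629869. Probe set 213479_at stood at 6.82 and 6.92 in TC/AEW, 4.25 and 4.19 in TC/AVE, 5.81 and 6.0 in TC/CP, and 7.87, 8.42 and 8.07 in TC-71. Every array of the resistant lines lay below every TC-71 array, and TC/AVE was near background. NPTX2 differed from the TC-71 mean of 8.12 ± 0.28 (SD, n = 3) by -1.25 in TC/AEW, -3.90 in TC/AVE and -2.22 in TC/CP, each ± 0.29 (SE). The level was 2.37-fold lower in TC/AEW and 4.65-fold lower in TC/CP, and, counted against the floor of 5, at least 8.68-fold lower in TC/AVE. The difference of -3.90 uses the TC/AVE level as read, under the floor, and is not an exact size.

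In limma the adjusted p of NPTX2 was 1.00 in TC/AEW, 0.111 in TC/AVE and 0.327 in TC/CP, with unadjusted p of 0.00743, 3.90e-05 and 0.000584. In TC/AVE the adjusted p was 0.0437 when the probe sets of each gene were averaged and 0.0348 after quantile normalisation, the difference itself moving by less than 0.05. Over all the alternatives run, that adjusted p lay between 1.28e-05 and 1. The lowest value came from taking the 9 arrays as separate samples, which treats technical replicates as independent. For the lines in common NPTX2 differed by -2.45 ± 0.61 (SE), with an adjusted p of 0.341, a value that includes the TC/AVE level near background. Against the TC-71 sample of the same array set the NPTX2 difference was -1.55 in TC/AEW (2.93-fold), -4.20 in TC/AVE and -2.17 in TC/CP (4.49-fold), and with the array set as a block the common difference was -2.57, adjusted p 0.439. NPTX2 was lower in every line under either choice of TC-71 value.

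Differences in NPTX2 between the lines did not pass the test either. TC/AEW minus the mean of TC/AVE and TC/CP was 1.81 ± 0.30 (SE), with an unadjusted p of 0.00193 and an adjusted p of 1.00 in limma. TC/AVE minus TC/CP was -1.68 ± 0.35 (SE), with an unadjusted p of 0.00501 and an adjusted p of 0.518. Both values use the TC/AVE level as read, near background, and are not exact sizes. The order TC-71, TC/AEW, TC/CP, TC/AVE from high to low had no neighbours whose arrays overlapped. The arrays of a line are technical replicates, so this order too is a description of single cultures.

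**Figure D3:**
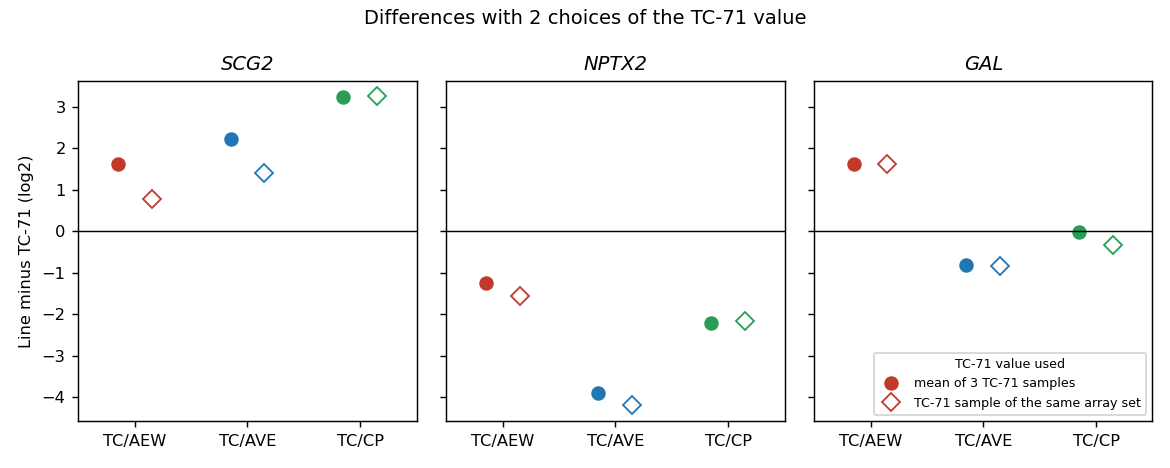
Difference of each resistant line (x axis) from TC-71 (y axis, log2) for SCG2, NPTX2 and GAL, taken against the mean of the 3 TC-71 samples (filled circles) and against the TC-71 sample of the same array set (open diamonds). The SCG2 difference in TC/AEW is 1.61 with the mean and 0.79 within the set, while the NPTX2 differences stay below 0 with both.

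RefSeq promoters of GRCh38.p14 were matched for 6 of the 10 genes (SCG3, SCG5, CHGA, VGF, NPY and NPTX2), and the 250 bases before the start were searched on both strands for the cyclic AMP response element TGACGTCA, its core TGACG, and the AP-1 site TGANTCA. The full element holds the core on both strands. CHGA and VGF held the full element, which 1.65% of 35116 promoters held. Its first base lay 54 bases before the start in CHGA and 79 in VGF. The start is that of the promoter entry, and in CHGA and VGF the 250 bases before it lay inside the gene's span. The core alone lay 17 bases before the start in SCG5 and 103 in NPTX2, so that 4 of the 6 held the core, as 21.2% of all promoters did. The AP-1 letters were in 0 of the 6 and in 6.57% of all promoters. Such a match is a description of letters and not of a bound site. The promoter of NPTX2, the member that was lower in all 3 lines, is shown beside those of CHGA and VGF, which hold the full element at levels near background or alike in all groups. They read 5′ to 3′ on the gene's strand with the core or element in capitals, from chr7:98617035-98617284 (plus strand), chr14:92922900-92923149 (plus strand) and chr7:101165570-101165819 (minus strand).
NPTX2: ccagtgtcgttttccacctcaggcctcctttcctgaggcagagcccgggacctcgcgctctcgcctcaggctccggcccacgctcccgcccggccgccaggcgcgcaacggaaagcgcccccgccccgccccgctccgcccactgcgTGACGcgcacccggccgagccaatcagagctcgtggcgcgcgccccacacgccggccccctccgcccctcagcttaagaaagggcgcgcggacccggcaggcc
CHGA: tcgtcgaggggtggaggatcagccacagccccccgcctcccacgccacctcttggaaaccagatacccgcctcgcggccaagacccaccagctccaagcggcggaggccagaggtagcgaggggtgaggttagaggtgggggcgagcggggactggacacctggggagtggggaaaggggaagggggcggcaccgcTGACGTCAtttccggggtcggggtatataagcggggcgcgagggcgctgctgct
VGF: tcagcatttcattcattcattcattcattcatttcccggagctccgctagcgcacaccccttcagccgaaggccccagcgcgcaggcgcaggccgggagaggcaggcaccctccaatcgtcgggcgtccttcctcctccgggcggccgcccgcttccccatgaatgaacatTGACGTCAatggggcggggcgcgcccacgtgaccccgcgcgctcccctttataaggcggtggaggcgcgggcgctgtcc

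The factors that bind such elements were read as part of a list of neuroendocrine and neural transcription factors. Among them CREB1 averaged 9.48 in TC/AEW, 9.37 in TC/AVE and 9.39 in TC/CP, and 9.56 ± 0.18 in TC-71 (SD, n = 3). CREM, a cyclic AMP responsive factor, averaged 8.69 in TC/AEW, 8.03 in TC/AVE and 8.09 in TC/CP, and 7.85 ± 0.35 in TC-71 (SD, n = 3). ATF3, a stress-induced factor of the same family, averaged 9.12 in TC/AEW, 8.08 in TC/AVE and 7.69 in TC/CP, and stood at 6.21, 9.71 and 6.98 in TC-71 samples 1, 2 and 3. TC-71 sample 2, of the same array set as TC/AEW and TC/AVE, thus exceeded every line in ATF3. ISL1, a homeodomain factor of sympathetic and sensory neurons, averaged 7.83 in TC/AEW, 8.0 in TC/AVE and 7.66 in TC/CP, and 7.18 ± 0.54 in TC-71. REST, the repressor of neural and granin genes outside the nervous system, averaged 6.91 in TC/AEW, 6.88 in TC/AVE and 7.51 in TC/CP, and 6.79 ± 0.40 in TC-71. Of the 24 measured factors of 32 listed, 1 was at least 2-fold above the TC-71 mean in TC/AEW (ATF3) and 0 in TC/AVE and TC/CP. As much lower were 0 in any line. Against TC-71 sample 2 alone, ATF3 was not higher in TC/AEW. The list's median differences were 0.12 in TC/AEW, -0.01 in TC/AVE and 0.04 in TC/CP, beside 0.0020, -0.017 and -0.0020 over all tested genes. None of the genes of this or the next 5 lists passed the threshold of limma in any comparison.

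Of 17 listed genes of prohormone processing and amidation 12 were measured. CPE, the carboxypeptidase that trims cut prohormones and sorts them to granules, averaged 9.75 in TC/AEW, 9.90 in TC/AVE and 9.31 in TC/CP, and 9.53 ± 0.26 in TC-71 (SD, n = 3). PAM, which amidates peptide ends, averaged 9.23 in TC/AEW, 9.33 in TC/AVE and 9.55 in TC/CP, and 9.11 ± 0.24 in TC-71. Both enzymes stayed within 0.44 of TC-71 in every line. PCSK1N, the inhibitor proSAAS, averaged 7.60 in TC/AEW, 7.35 in TC/AVE and 6.93 in TC/CP, and 7.26 ± 0.06 in TC-71. QPCT, which cyclises amino-terminal glutamine, differed from TC-71 by -1.03 in TC/AEW, 0.22 in TC/AVE and 0.70 in TC/CP, and was the 1 gene of this list that differed by at least 2-fold, in TC/AEW. CTSL, a cathepsin that also cuts prohormones, differed by 0.48, 0.70 and, just under 2-fold, 1.00, and CYB561, the granule cytochrome that supplies electrons for amidation, by -0.34, -0.52 and 0.23 in the same order. The list's medians were 0.09 in TC/AEW, 0.08 in TC/AVE and 0.15 in TC/CP.

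Of 19 listed proteins of granule and vesicle membranes 15 were measured, with medians of 0.01 in TC/AEW, 0.03 in TC/AVE and -0.05 in TC/CP. In TC/AEW 0 were at least 2-fold higher and 1 as much lower, in TC/AVE 1 and 1, and in TC/CP 1 and 2. SV2C, a synaptic vesicle glycoprotein, averaged 5.27 in TC/AEW, 5.27 in TC/AVE and 7.22 in TC/CP, and 4.76 ± 0.11 in TC-71, near background. The SV2C difference of 2.46 in TC/CP uses that level as read and is not an exact size, and its adjusted p in limma was 0.224. Its relative SV2B lay on the other side of TC-71, with averages of 9.62 in TC/AEW, 8.56 in TC/AVE and 8.27 in TC/CP, and 10.07 ± 0.56 in TC-71. SLC18A3, the vesicular acetylcholine transporter, averaged 5.42 in TC/AEW, 5.95 in TC/AVE and 5.48 in TC/CP, and 6.80 ± 0.64 in TC-71, lower in all 3 lines.

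Of 38 listed genes of the exocytosis machinery 22 were measured, with medians of 0.10 in TC/AEW, -0.06 in TC/AVE and -0.02 in TC/CP. In TC/AEW 1 was at least 2-fold higher and 0 as much lower, in TC/AVE 2 and 1, and in TC/CP 0 and 1. EXPH5, which binds the granule GTPase RAB27, averaged 7.23 in TC/AEW, 6.62 in TC/AVE and 6.19 in TC/CP, and 5.54 ± 0.23 in TC-71. SYT4, a synaptotagmin of dense-core granules, averaged 7.5 in TC/AEW, 5.46 in TC/AVE and 6.79 in TC/CP, and 6.91 ± 0.91 in TC-71. SYT4 was thus highest in TC/AEW and lowest in TC/AVE, the same order of lines as GAL. CADPS2, which primes dense-core granules for release, averaged 9.05 in TC/AEW, 9.35 in TC/AVE and 8.41 in TC/CP, and 9.75 ± 0.22 in TC-71, lower in all 3 lines.

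**Figure D4:**
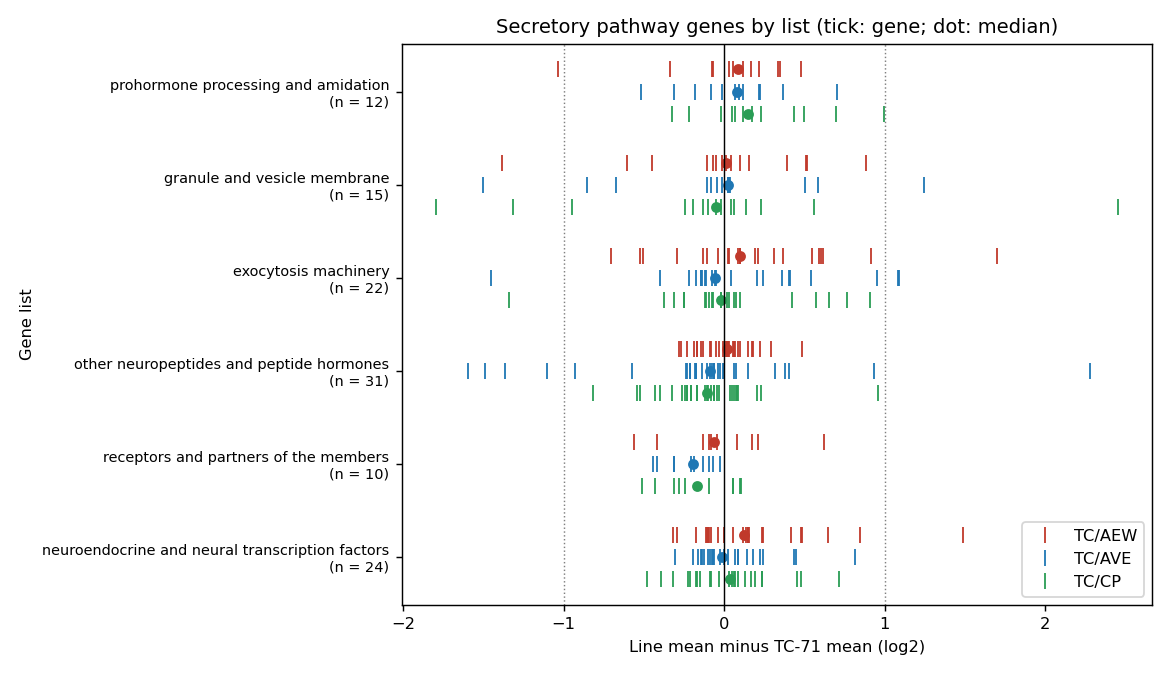
Difference of each line mean from the TC-71 mean (x axis, log2) for the measured genes of 6 secretory lists (y axis); each tick is a gene, each dot the median of a list in a line, and dotted lines mark a 2-fold difference. All medians lie within 0.20 of 0, while single genes such as SV2C at 2.46 in TC/CP and UTS2B at 2.28 in TC/AVE lie far out.

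Of 49 other neuropeptides and peptide hormones listed 31 were measured, with medians of 0.02 in TC/AEW, -0.09 in TC/AVE and -0.11 in TC/CP. In TC/AVE 1 was at least 2-fold higher and 4 as much lower, and in TC/AEW and TC/CP 0 were either. UTS2, urotensin II, a vasoactive peptide, averaged 11.24 in TC/AEW, 10.03 in TC/AVE and 11.75 in TC/CP, and 11.52 ± 0.17 in TC-71. Its paralog UTS2B averaged 5.43 in TC/AEW, 7.65 in TC/AVE and 5.58 in TC/CP, and 5.38 ± 0.27 in TC-71, a difference of 2.28 in TC/AVE with an adjusted p of 0.204 in limma. The urotensin genes thus lay on opposite sides of TC-71 in TC/AVE. SPX, spexin, a ligand of galanin receptors, averaged 9.04 in TC/AEW, 7.42 in TC/AVE and 8.47 in TC/CP, and 9.01 ± 1.18 in TC-71.

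Of 21 listed receptors and partners of the members 10 were measured, with medians of -0.06 in TC/AEW, -0.20 in TC/AVE and -0.17 in TC/CP, and 0 differed 2-fold in any line. NPY1R, a receptor of NPY, averaged 9.15 in TC/AEW, 9.12 in TC/AVE and 9.14 in TC/CP, and 9.57 ± 0.10 in TC-71. All 6 arrays of the lines lay below the TC-71 arrays, as for 4.27% of tested genes, and the adjusted p for the lines in common was 0.400 in limma. NPY5R averaged 6.16 in TC/AEW, 6.02 in TC/AVE and 5.80 in TC/CP, and 6.08 ± 0.50 in TC-71, and NPY2R was under the floor on all arrays. Of the galanin receptors, GALR1 and GALR2 were under the floor, and GALR3 averaged 6.92 in TC/AEW, 6.72 in TC/AVE and 6.80 in TC/CP, and 6.75 ± 0.12 in TC-71. NPTXR, the membrane-bound pentraxin that joins NPTX1 and NPTX2, averaged 9.12 in TC/AEW, 8.79 in TC/AVE and 9.31 in TC/CP, and 9.21 ± 0.36 in TC-71. The differences from TC-71 farthest from 0 were -0.42 for NPTXR, in TC/AVE, and 0.17 for GALR3, in TC/AEW. ADAM17, a protease that can cut NPTXR, differed from TC-71 by -0.56 in TC/AEW, -0.31 in TC/AVE and 0.11 in TC/CP. KIRREL3, an adhesion protein, differed by 0.62, -0.31 and -0.25, and GRN, the progranulin gene, by -0.13, -0.19 and -0.51, in the same order.

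The genes whose levels ran most like each member over the 6 samples were ranked by the root mean square difference of centred log2 levels, among 395 genes whose samples spanned at least 2. For SCG2 these were TRIM14, at 0.408, and PROCR, at 0.423. TRIM14, a tripartite motif protein, stood at 7.18 in TC/AEW, 6.95 in TC/AVE and 7.54 in TC/CP, and at 4.51, 5.88 and 5.09 in TC-71. PROCR, the endothelial protein C receptor, stood at 7.71 in TC/AEW, 7.54 in TC/AVE and 8.36 in TC/CP, and at 4.73, 7.01 and 6.12 in TC-71. Both shared with SCG2 the lowest level in TC-71 sample 1, where both were near background, and the highest in TC/CP. Such shared high and low samples, here and for NPTX2 and GAL, follow in part from choosing genes by likeness over the same 6 samples.

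For NPTX2 the most similar genes were LGALS1, at 0.379, and SLC7A2, at 0.422. LGALS1, galectin 1, stood at 9.90 in TC/AEW, 7.37 in TC/AVE and 9.49 in TC/CP, and at 10.58, 11.36 and 10.42 in TC-71. SLC7A2, a transporter of cationic amino acids, stood at 7.09 in TC/AEW, 5.14 in TC/AVE and 6.95 in TC/CP, and at 7.88, 8.40 and 8.32 in TC-71. For both, as for NPTX2, the lowest sample was TC/AVE and the highest TC-71 sample 2. For GAL they were FHL2, at 0.208, and PWWP3B, at 0.226. FHL2, a LIM domain cofactor, stood at 7.11 in TC/AEW, 4.85 in TC/AVE and 5.91 in TC/CP, and at 5.55, 6.06 and 6.39 in TC-71, with its TC/AVE level near background. PWWP3B stood at 7.55 in TC/AEW, 4.63 in TC/AVE and 6.10 in TC/CP, and at 5.31, 5.77 and 6.36 in TC-71. Its TC/AVE level was also near background. For both, as for GAL, TC/AEW was the highest and TC/AVE the lowest sample.

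**Figure D5:**
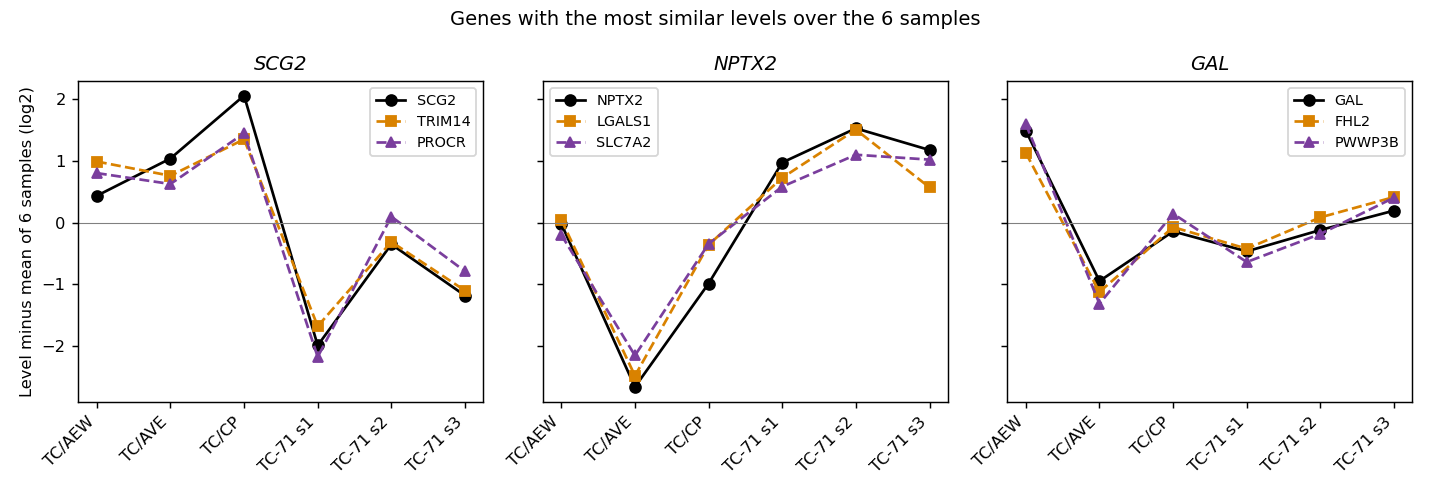
Level minus the mean of the 6 samples (y axis, log2) in TC/AEW, TC/AVE, TC/CP and the 3 TC-71 samples, s1 to s3 (x axis), for SCG2, NPTX2 and GAL (black) and the 2 genes most like each (dashed). The lines run within a root mean square difference of 0.208 (FHL2 and GAL) to 0.423 (PROCR and SCG2).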

How the data were processed

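Levels on 9 arrays were deposited by the authors as log2 values, and per the submitters' processing notes the tools were RMA and affy; their versions were not given in the sources used here. From these, 62 of 54675 probe sets were dropped as controls, and 41091 with 1 symbol were used, 41037 of them found in RefSeq (GRCh38.p14). A probe set was kept where 2 arrays reached 5, which left 26952. A gene was read by the kept probe set of highest mean, with _x_at sets only where no other was kept, giving 14181 genes. Members and lists were chosen with earlier results of these data known. Per list, the 3 measured genes farthest from TC-71 are named, with fixed receptors, CPE, PAM, PCSK1N and REST. The 2 genes most like each member spanning at least 2 are also named. CREB1 was added outside this rule.

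The test was limma 3.58.1 under R 4.3.3, two-sided, adjusted after Benjamini and Hochberg, with a threshold of 0.05, on 6 samples, and was tested on simulated data. The single-line fit (4 groups) had 2 residual and 3.00 prior degrees of freedom, all spread coming from TC-71. The common fit (2 groups) had 4 residual and 3.06 prior. All p-values reflect no more than the spread of these samples, and the number of arrays limits the precision. Array medians were 5.39 to 5.45. Alternatives changed the filter, probe set rule, normalisation, array set, and samples left out. Value columns belonging to no sample numbered 0. Some listed genes were not analysed here.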

Additional observations from a re-analysis of the deposited data

Results flagged for a closer look

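Some genes of the secretory lists lay above every TC-71 array on both arrays of one resistant line and below every TC-71 array on both arrays of another. The difference between those lines was not tested for these pairs, except TC/AVE against TC/CP. How many of all tested genes show such a pattern was not counted, so nothing is read from its presence here. Some of the gaps from TC-71 were small. For SYT4 the lower TC/AEW array read 7.501 against a highest TC-71 array of 7.452. For UTS2 the lower TC/CP array read 11.71 against 11.69. For CPE the lower TC/AVE array read 9.865 against 9.830. The higher TC/CP array of CPE read 9.341 against a lowest TC-71 array of 9.380. For GAL, TC/AEW minus TC/AVE was 2.44 on the log2 scale (means 8.12 and 5.68). For SYT4 the same difference was 2.04 (7.5 and 5.46). For UTS2, TC/CP minus TC/AEW was 0.51 and TC/CP minus TC/AVE 1.72 (11.75 against 11.24 and 10.03). For QPCT, TC/CP minus TC/AEW was 1.73 (7.77 and 6.04). For KIRREL3, TC/AEW minus TC/AVE was 0.93 and TC/AEW minus TC/CP 0.87 (5.89 against 4.96 and 5.03, with TC/AVE near background). For PCSK1N, TC/AEW minus TC/CP was 0.67 (7.60 and 6.93). For CPE, TC/AVE minus TC/CP was 0.59 (9.90 and 9.31), and the adjusted p of that comparison was 1 in limma.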

How the results depend on the processing

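The members' calls and directions were set against each alternative processing. Differences of SCG2 and NPTX2 in the 4 comparisons with TC-71 kept their sign under all alternatives run. The common difference ranged from 1.92 to 2.77 for SCG2 and from -3.06 to -1.73 for NPTX2. Small differences changed sign. For GAL the common difference ranged from -0.42 to 0.80 with 1 sample left out, and in TC/CP it ranged from -0.18 to 0.15 likewise and was 0.015 with each array centred on its median. NPTX1 ranged from -0.067 to 0.018 in common and from -0.010 to 0.018 in TC/CP with 1 sample left out, and was 0.026 after centring and 0.032 after quantile normalisation in TC/CP. VGF in common was 0.039 with the array set as a block, and ranged from -0.099 to 0.021 in common, -0.070 to 0.050 in TC/AVE and -0.0061 to 0.11 in TC/CP with 1 sample left out. With the TC-71 sample of the same array set, 1 member in place of 2 was at least 2-fold higher in TC/AEW.

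Counts of called genes depended most on taking the 9 arrays as separate samples, which treats technical replicates as independent. Without a replicate block that fit called 240 genes in common, 547 in TC/AEW, 1857 in TC/AVE, 1029 in TC/CP, 295 for TC/AEW against the antibody-drawn lines and 1897 for TC/AVE against TC/CP. With the replicate block it called 39, 350, 1220, 1242, 238 and 1798 in the same order, and GAL in TC/CP was 0.15. Same-numbered arrays deviated together at correlations of -0.145 to 0.201, so the numbers were not taken to pair the samples. Among comparisons with TC-71, the fit without the block called SCG2 in common (adjusted p 0.0332), TC/AVE and TC/CP, NPTX2 in all 3 single lines, and GAL in TC/AEW and TC/AVE. The common count of 3 was 0 with the array set as a block, with every kept probe set tested, with no filter, and with any 1 of the 6 samples left out. It was 5 with arrays centred on their medians or without _x_at and _s_at probe sets, and 6 with a trend, with averaged probe sets or with a stricter filter. TC/AVE had 6 genes with averaged probe sets and 5 after quantile normalisation. With a trend TC/CP had 1 gene and TC/AVE against TC/CP had 1. The causes were not tested. Levels under 5 limit what can be said of CHGA, CHGB, SCG3, SCG5 and NPY.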
